A study of Mus musculus with 6 samples.

Results

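The genes described here encode the protein components of the mitochondrial ribosome. They were taken as every row of the deposited table whose mouse symbol starts with Mrpl or Mrps followed by digits, leaving out symbols that contain -ps, which name pseudogenes. This rule gave 78 of the 56923 genes in the table, 49 with Mrpl symbols and 29 with Mrps symbols, and it used no measured value. The libraries were bulk poly-A RNA-seq of locus coeruleus micropunches from 3 wild-type (WT) samples, numbered 62, 63 and 66, and 3 samples of the 5xFAD transgenic line, numbered 64, 65 and 79. 5xFAD mice carry transgenes driven by mouse Thy1 regulatory sequence and serve as a model of amyloid deposition. The sources used here do not give age, sex, strain background or any treatment. The series addresses how early sleep disruption in this model relates to the locus coeruleus, the main noradrenergic nucleus of the brain. The labels do not say that the libraries came from separate animals, so the p-values measure only the spread between these samples, which may be technical.

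Mitochondria keep a small genome whose messenger RNAs encode core subunits of the respiratory chain and of ATP synthase, and they translate it on ribosomes of their own. Every protein of those ribosomes is encoded in the nucleus, translated in the cytosol and imported, and is then assembled with ribosomal RNA made inside the organelle. Part of these proteins have counterparts in bacterial ribosomes, and the others arose in the mitochondrial lineage. Neurons of the locus coeruleus fire tonically and depend heavily on oxidative phosphorylation.

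Promoters were read from RefSeq windows of GRCm38.p6 that run from 250 bases before to 50 bases after a gene's start, and 69 of the 78 members had one. The letters searched, on both strands, were the palindromic NRF1 consensus (the capitals of the Mrpl39 window) and a looser form with the fifth base left free, NRF1 being a regulator of nuclear genes for mitochondrial proteins, CCGGAAG for the ETS family, AAGATGGCG for YY1, and GGGCGG for Sp1. The looser NRF1 form contains the exact one. It was in 18.8% of member promoters (13 genes) against 5.19% of all 27025 genes with a window, and the exact palindrome was in 4.35% against 1.07%. CCGGAAG was in 37.7% (26 genes) against 9.93%, AAGATGGCG in 11.6% (8 genes) against 1.64%, and GGGCGG in 49.3% (34 genes) against 38.2%. Member promoters are also rich in CpG. With the window richest in CpG taken for each gene, the median was 7.0 per 100 bases for members against 2.67 for all genes with a window. A match is a description of letters and not a measured binding site.

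These 4 windows show 3 of the motif kinds, the members with the lowest and the highest fold change, and a start region shared by a large-subunit and a small-subunit gene, with matched NRF1, ETS and YY1 letters in capitals and the rest, Sp1 letters included, in lower case, 5′ to 3′ on the strand of the gene. Mrpl36 (lowest fold change of 5xFAD over WT) is at chr13:73330759-73331058 on the plus strand, with the YY1 letters in reverse beginning 31 bases before the start. This RefSeq start lies 2496 bases downstream of the GENCODE start that neighbours Ndufs6. Mrpl53 (highest fold change) is at chr6:83108858-83109157 on the plus strand, with ETS letters 59 bases before the start and, in reverse, 16 bases before it. Mrpl39, at chr16:84735195-84735494 on the minus strand, carries the NRF1 palindrome beginning 125 bases before the start. Mrps11, at chr7:78782881-78783180 on the plus strand, carries the YY1 letters in reverse 108 bases before the start, and its window shares 141 bases with that of Mrpl46.
Mrpl36: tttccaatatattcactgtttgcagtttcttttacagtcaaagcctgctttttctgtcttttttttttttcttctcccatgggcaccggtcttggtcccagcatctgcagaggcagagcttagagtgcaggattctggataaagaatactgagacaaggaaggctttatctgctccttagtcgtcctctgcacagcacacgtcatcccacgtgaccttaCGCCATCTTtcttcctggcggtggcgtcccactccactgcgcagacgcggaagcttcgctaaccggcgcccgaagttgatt
Mrpl53: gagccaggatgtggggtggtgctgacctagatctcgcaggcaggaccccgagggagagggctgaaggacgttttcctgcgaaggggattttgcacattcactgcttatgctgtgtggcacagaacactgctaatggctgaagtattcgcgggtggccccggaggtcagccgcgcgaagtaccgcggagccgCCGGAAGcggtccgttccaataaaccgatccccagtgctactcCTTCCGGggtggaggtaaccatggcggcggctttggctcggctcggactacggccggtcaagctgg
Mrpl39: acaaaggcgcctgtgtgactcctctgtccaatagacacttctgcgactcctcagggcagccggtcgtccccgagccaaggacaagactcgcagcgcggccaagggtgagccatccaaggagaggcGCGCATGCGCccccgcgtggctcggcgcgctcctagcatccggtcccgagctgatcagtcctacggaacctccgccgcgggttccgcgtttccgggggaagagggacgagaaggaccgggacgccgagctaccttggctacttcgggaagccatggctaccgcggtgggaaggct
Mrps11: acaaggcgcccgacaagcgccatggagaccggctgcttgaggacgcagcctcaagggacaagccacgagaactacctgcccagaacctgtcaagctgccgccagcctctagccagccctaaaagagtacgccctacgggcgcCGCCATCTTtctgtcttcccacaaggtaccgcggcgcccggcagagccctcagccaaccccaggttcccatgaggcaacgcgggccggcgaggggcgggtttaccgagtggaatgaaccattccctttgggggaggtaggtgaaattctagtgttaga

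The libraries held 15158712 to 20079349 reads assigned to genes, and 22617 to 23565 genes had a value above 0. Values are normalized counts, that is reads divided by a size factor of each library, and differences are log2 fold changes of 5xFAD over WT on the scale of log2 (normalized count + 1). Thy1, App and Mapt were fixed as the check of genotype, and their median log2 fold change was 0.05 and the lowest -0.02. Thy1, whose regulatory sequence drives the transgenes, read 8755, 7976 and 9090 in the WT libraries and 21875, 16885 and 22211 in the 5xFAD libraries. It was the only gene of 16411 tested that passed an adjusted p of 0.05 (log2 fold change 1.23, SE 0.11, limma with Benjamini-Hochberg adjustment, adjusted p = 0.0456), and it lost that call in 8 of 16 alternative settings, with adjusted p from 4.39e-29 to 0.532 over all of them. All 8 noradrenergic markers were above 0 in every library, with summed levels of 6325 to 11892 normalized counts in WT and 9162 to 13349 in 5xFAD. Markers of cerebellar granule cells, which lie close to this nucleus, differed between libraries within both groups. Their mean log2 value was also higher in 5xFAD, at 10.18 ± 0.76 against 8.80 ± 1.55 in WT (SD, n = 3 libraries). All 6 of them were above 0 in every library, and their summed level was 2751, 9563 and 3927 normalized counts in WT, against 8355, 12047 and 5133 in 5xFAD. The WT library 66 also held 1107 normalized counts of the choroid plexus marker Ttr, against 61.2 or fewer in the others.

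All 78 mitoribosomal genes were expressed in every library. All 78 also passed the filter on low values, which asked for at least 10 normalized counts in at least 3 libraries. No member was at 0 in any library, and the lowest value of any member was 61.3 normalized counts, or 60 reads. Means over the 6 libraries ran from 68.6 normalized counts for Mrps28, the counterpart of bacterial S1, to 1137 for Mrps25, a small-subunit protein found only in mitochondria. The median member had 392 normalized counts, beside 319 for all tested genes. The 78 genes together took between 0.190% and 0.196% of each library's total. A microdissected punch holds many cell types, and in such bulk samples fewer cells of a type and less RNA per cell cannot be told apart.

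Levels of different genes can be set against each other only per length. Divided by the median length of their coding transcripts in GENCODE M21, the members had a median of 293 normalized counts per kb, against 148 for the 14320 tested genes with a length, and 67 of the 78 members lay above that all-gene median. The gap was smaller among genes of like length. At or under the members' median length of 1224.5 bases, the median was 360 for members and 288 for all tested genes. Over that length it was 241 and 138. Large-subunit and small-subunit members had like medians, at 295 and 269 normalized counts per kb. From the lowest to the highest member, the level per kb spanned a 21.8-fold range. Mrps21, the counterpart of bacterial S21, stood highest at 1362 normalized counts per kb, followed by Mrpl42 at 1151 and Mrps33 at 953. The lowest were Mrpl57 at 62.4, Mrps16 at 68.8 and Mrps35 at 81.2. This order depends on the annotated length, which was 446.5, 661 and 717 bases for Mrps21, Mrpl42 and Mrps33. It was 2877, 2572 and 4162 bases for Mrpl57, Mrps16 and Mrps35, each with 1 annotated coding transcript. Nuclear genes of mitochondrial translation that are not ribosomal proteins had lower medians per kb, at 115 for the assembly factors, 156 for the translation factors and 93.5 for the tRNA synthetases and amidotransferase subunits. Nuclear complex I subunits had a median of 1508 and cytosolic ribosomal proteins one of 3091.

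**Figure D1:**
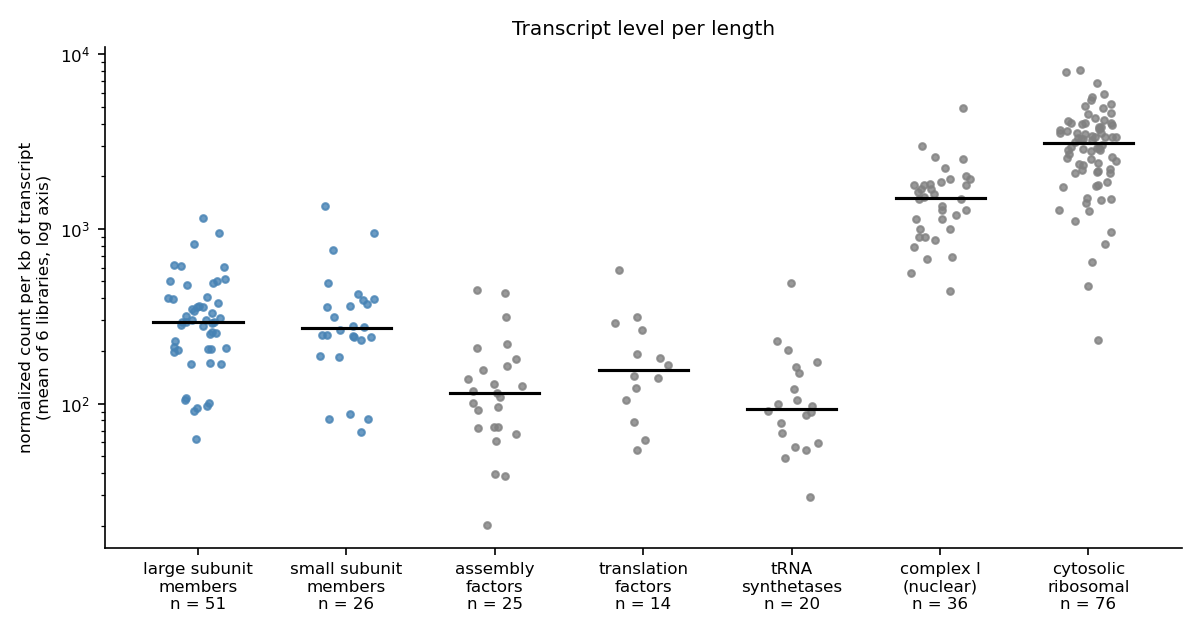
Normalized count per kb of coding transcript (mean of 6 libraries, log axis) for each gene of 7 lists, with n the genes that have a length and the horizontal bar the median of each list. The large-subunit (median 295) and small-subunit (median 269) members lie above the assembly factors (115), translation factors (156) and tRNA synthetases (93.5) and below complex I (1508) and the cytosolic ribosomal proteins (3091).

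The members varied less between libraries of one genotype than most genes did. Their median SD within groups was 0.083 on the log2 scale, against 0.138 for all tested genes. Of the 78, 65 lay under the all-gene median. The median was 0.045 for cytosolic ribosomal proteins, 0.071 for translation factors and 0.087 for nuclear complex I subunits. It was 0.118 for the tRNA synthetases and amidotransferase subunits and 0.124 for the assembly factors. A low spread was thus not limited to the members. The tested genes also include some with lower means than any member, and the part of level in the spread was not tested. Mrpl3, which sits close to the peptidyl transferase centre, had the smallest SD within groups of any member, at 0.016. It read 1159, 1146 and 1155 normalized counts in WT, against 1093, 1121 and 1092 in 5xFAD. Those groups did not overlap, and its log2 fold change was -0.07 (SE 0.05). Mrpl14, a protein of the interface between the subunits, had the largest SD within groups, at 0.298 on the log2 scale. It read 110.5, 78.3 and 131 in WT, against 104, 103 and 131 in 5xFAD. The WT values ran wider than the 5xFAD values, and the groups overlapped.

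No mitoribosomal gene differed between genotypes past the threshold. Of the 78, 0 had an adjusted p under 0.05 in either direction (limma with Benjamini-Hochberg adjustment over 16411 genes, smallest adjusted p 0.9995), where 0.00609% of all tested genes were called higher and 0% lower. By edgeR and by DESeq2 on the recovered reads the number of members past the threshold was also 0, with 0.00609% and 0.0106% of all genes called. At an unadjusted p under 0.05 there were 0 members with higher values (1.27% of all tested genes) and 1 with lower values, Mrpl13 (1.05% of all tested genes), so 1 of 78 against 2.32% in either direction. With edgeR that count was 1 (2.33% of all genes), with DESeq2 0 (0.731%), and with limma without trend and robust moderation 3 (3.26%). With limma it was 0 without WT library 62 (1.82% of all genes) and 0 without 5xFAD library 79 (3.42%). It was 2 without 5xFAD library 65 (Mrpl13 and Mrpl36, where 1.66% of all genes had lower values at that p). Without WT library 63 it was 5 (Mrpl34, Mrps36, Mrpl10, Mrpl13 and Mrpl36), all with lower values in 5xFAD, where 2.44% of all genes were lower and 3.59% higher at that p.

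In the main test, which had no covariate, the data bounded the differences narrowly. The 95% interval of the fold change lay within 1.5-fold in either direction for 78 of 78 members, against 71.4% of all tested genes. This did not hold with the cerebellar granule marker level as a covariate, where the upper log2 limit passed 1.5-fold for Mrpl14 (0.81) and Mrps28 (0.69). In the main test the interval lay within 1.25-fold for 61 members, or 78.2%, against 47.2% of all tested genes. That share was 97.4% for cytosolic ribosomal proteins, 88.9% for nuclear complex I subunits, 71.4% for translation factors and 26.9% for assembly factors. The median half-width of the interval was 0.193 on the log2 scale for the members and 0.254 for all tested genes. Fold changes ran from -0.26 for Mrpl36 to 0.21 for Mrpl53, and the median of the members was -0.03 beside 0.00 for all tested genes. Values were higher in 5xFAD for 28 members and lower for 50, so that 35.9% were higher, where 50.2% of all tested genes were higher and 49.8% lower. In 6 members every 5xFAD value lay under every WT value (3.7% of all tested genes), and in 2 every 5xFAD value lay above (3.72% of all tested genes).

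**Figure D2:**
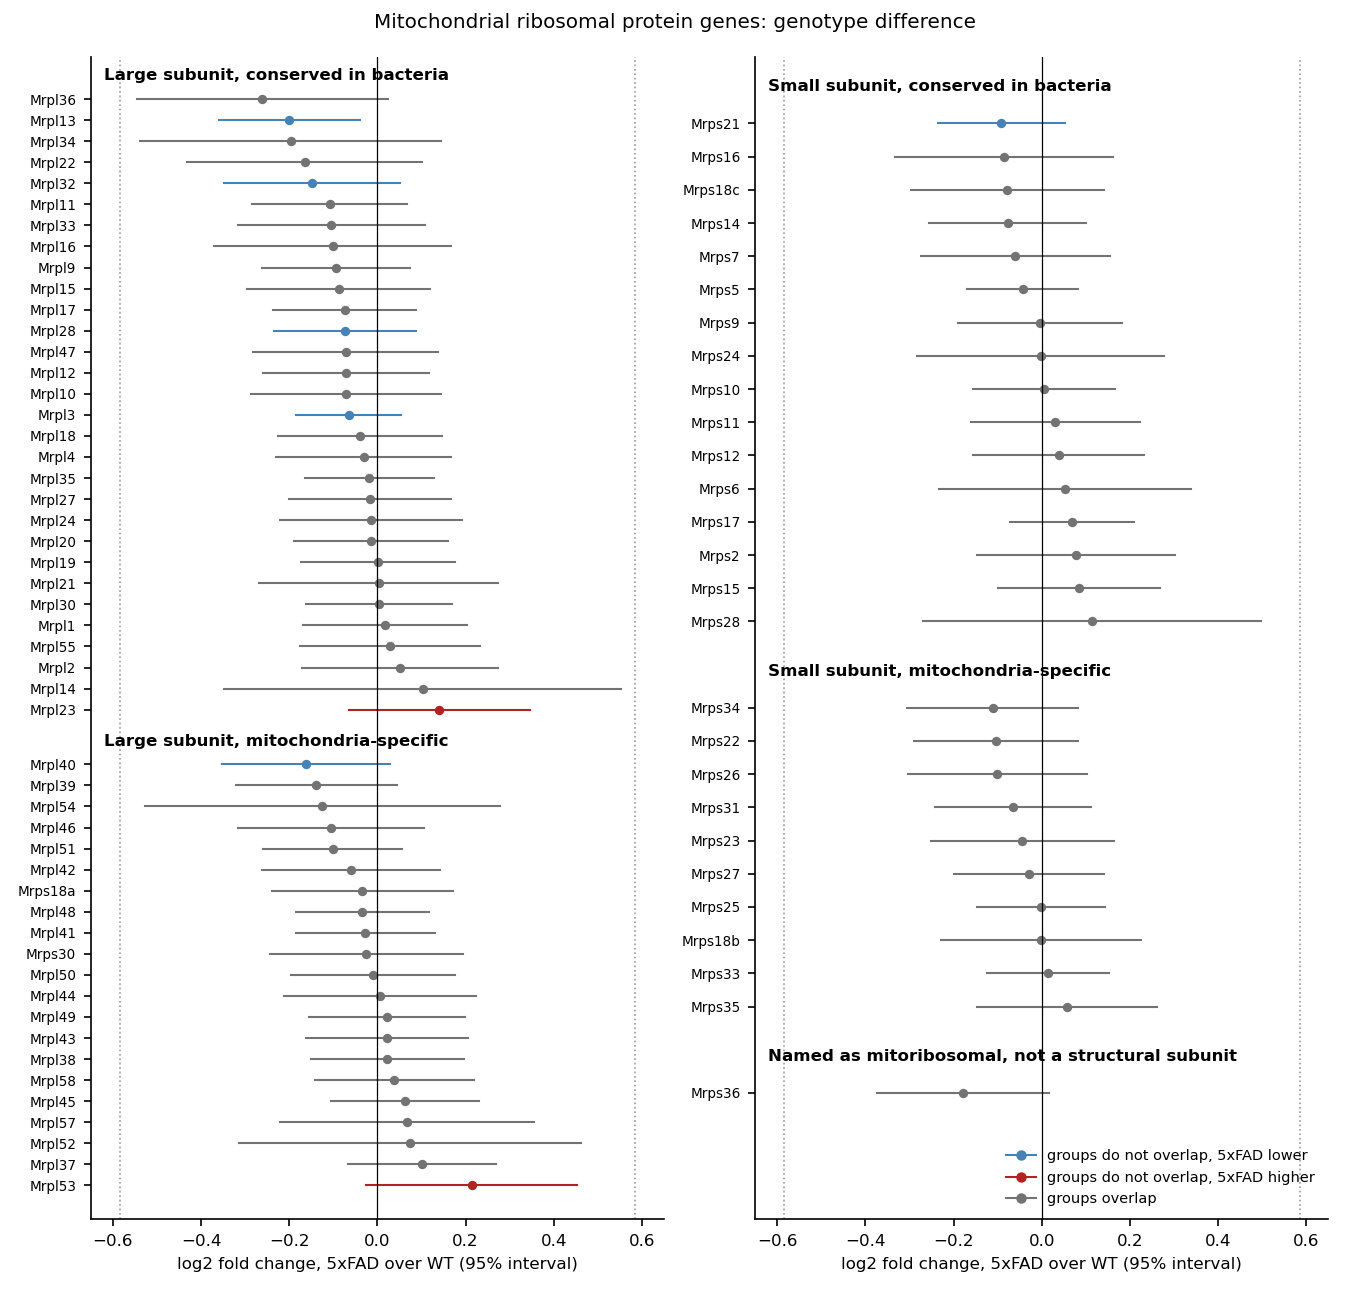
Log2 fold change of 5xFAD over WT (x axis, log2 of normalized count + 1) with its 95% interval (limma without a covariate) for each of the 78 genes, by subunit and by presence in bacteria. Dotted lines mark 1.5-fold in either direction, which no interval crosses, and colour marks the 6 genes whose 5xFAD values all lie under WT and the 2 whose values all lie above.

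Among the large-subunit proteins with bacterial counterparts, 8 of 30 had higher values in 5xFAD and the median log2 fold change was -0.07. The sign of that median turned when the level of cerebellar granule markers was a covariate, the alternative described with the library means, which gave 17 of 30 higher and a median of 0.03. Mrpl13, the counterpart of bacterial L13, read 528, 519 and 515 normalized counts in WT, against 473, 459 and 429 in 5xFAD. The groups did not overlap, with the lowest WT library above the highest 5xFAD library. Its log2 fold change was -0.20 (SE 0.07, 95% interval -0.36 to -0.04, limma, unadjusted p = 0.0198, adjusted p = 0.9995). In the authors' deposited table Mrpl13 has a log2 fold change of -0.20, with its sign turned to 5xFAD over WT, and a DESeq2 adjusted p of 0.9999. The authors' deposited table has 0 members with an unadjusted p under 0.05. The gene shares exon bases on the opposite strand with Mtbp, whose own log2 fold change was -0.23 (SE 0.23).

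Mrpl36, the counterpart of the small zinc-binding protein L36 of bacteria, had the lowest fold change of all members. It read 256, 208 and 223 normalized counts in WT, against 166, 209 and 198 in 5xFAD. WT library 62 was the highest and 5xFAD library 64 the lowest, and the groups overlapped. The log2 fold change was -0.26 (SE 0.13, 95% interval -0.55 to 0.02). Mrpl32, which is matured by the m-AAA protease before it joins the ribosome, read 284, 298 and 285 in WT, against 245, 268 and 269 in 5xFAD. Its groups did not overlap (log2 fold change -0.15, SE 0.09).

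Mrpl22 and Mrpl23 line the tunnel through which the nascent chain leaves the ribosome, and they differed in direction. Mrpl22 read 207, 192 and 189.9 in WT, against 168, 160.1 and 199 in 5xFAD, where 5xFAD library 79 lay among the WT values (log2 fold change -0.17, SE 0.12). Mrpl23 read 236, 229 and 239 in WT, against 261, 270.4 and 245 in 5xFAD, and all 3 5xFAD values lay above WT (log2 fold change 0.14, SE 0.09). Mrpl11, at the base of the stalk that recruits translation factors, read 448, 431 and 486 in WT, against 406, 432 and 428 in 5xFAD. The groups overlapped, and the log2 fold change was -0.11 (SE 0.08). Mrpl28, the counterpart of bacterial L28, read 428, 428 and 449 in WT, against 418, 405 and 417 in 5xFAD. All of its 5xFAD values lay below WT, by a log2 fold change of -0.07 (SE 0.07). Mrpl35, among the members with the highest means, read 812, 745 and 753 in WT, against 729, 772 and 779.8 in 5xFAD, with overlap and a log2 fold change of -0.02 (SE 0.07).

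Of the large-subunit proteins found only in mitochondria, 10 of 21 had higher values in 5xFAD, and their median log2 fold change was -0.01. Mrpl53 had the highest fold change of all members. It read 156, 169 and 163 normalized counts in WT, against 183, 185 and 199.95 in 5xFAD. No library of one group reached the other (log2 fold change 0.21, SE 0.11, 95% interval -0.03 to 0.45). The annotation has an opposite-strand and a same-strand gene overlapping the exons of Mrpl53, so part of its reads could not be assigned to it with certainty. Mrpl40 read 310.1, 291 and 309 in WT, against 276, 263 and 274 in 5xFAD, again without overlap but in the other direction (log2 fold change -0.16, SE 0.09).

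Mrpl39, which is related in sequence to threonyl-tRNA synthetases, read 466, 443 and 512 in WT, against 449.5, 422 and 417 in 5xFAD. The highest 5xFAD library lay just above the lowest WT library (log2 fold change -0.14, SE 0.08). Mrpl51 read 747, 687 and 712 in WT, against 695, 684 and 623 in 5xFAD, with overlap (log2 fold change -0.10, SE 0.07). Mrpl48, a protein of the central protuberance, read 958, 926 and 955 in WT, against 913, 866 and 998 in 5xFAD. The 5xFAD values spread to both sides of WT, and the log2 fold change was -0.03 (SE 0.07). The members with low means were known less precisely. Mrpl52 read 77.1, 104 and 84.7 in WT, against 79.7, 98.8 and 101 in 5xFAD (log2 fold change 0.07, SE 0.17). Mrpl54 read 111, 89.5 and 118 in WT, against 117, 81.1 and 96.0 in 5xFAD (log2 fold change -0.12, SE 0.18).

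The 26 small-subunit members had log2 fold changes from -0.11 to 0.12. Of the 16 with bacterial counterparts, 8 had higher values and the median was 0.00. Mrps21 was the only small-subunit member whose groups did not overlap, at 639, 632 and 611 normalized counts in WT, against 606, 571 and 589.9 in 5xFAD (log2 fold change -0.09, SE 0.06). Mrps5, which lies at the channel where messenger RNA enters, read 1163, 1106 and 1108 in WT, against 1117, 1069 and 1089.7 in 5xFAD. Its groups overlapped (log2 fold change -0.04, SE 0.06). Mrps28 read 74.3, 61.9 and 61.3 in WT, against 77.4, 64.5 and 72.0 in 5xFAD, also with overlap (log2 fold change 0.12, SE 0.17).

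Of the 10 small-subunit proteins found only in mitochondria, 2 had higher values in 5xFAD, and the median log2 fold change was -0.04. Mrps25, the member with the highest mean, read 1195, 1062 and 1159.8 in WT, against 1181, 1125 and 1102 in 5xFAD. The 5xFAD values lay inside the WT range, with a log2 fold change of -0.00 (SE 0.06). Taken by subunit, 18 of 51 large-subunit members and 10 of 26 small-subunit members had higher values, with medians of -0.03 and -0.00. Mrps18a and Mrps30 were counted with the large subunit, where their proteins are found, despite their symbols. Taken by origin, 16 of 46 members with bacterial counterparts and 12 of 31 found only in mitochondria had higher values. The difference between these classes was not tested.

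Mrps36 bears a mitoribosomal symbol, but its protein is now known as a component of the 2-oxoglutarate dehydrogenase complex, an enzyme of the citric acid cycle, and it was kept apart from both subunits. It read 435, 376 and 416 normalized counts in WT, against 379, 343 and 359.9 in 5xFAD. One 5xFAD library, 64, lay above the lowest WT library, 63, and the log2 fold change was -0.18 (SE 0.09, 95% interval -0.37 to 0.02).

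**Figure D3:**
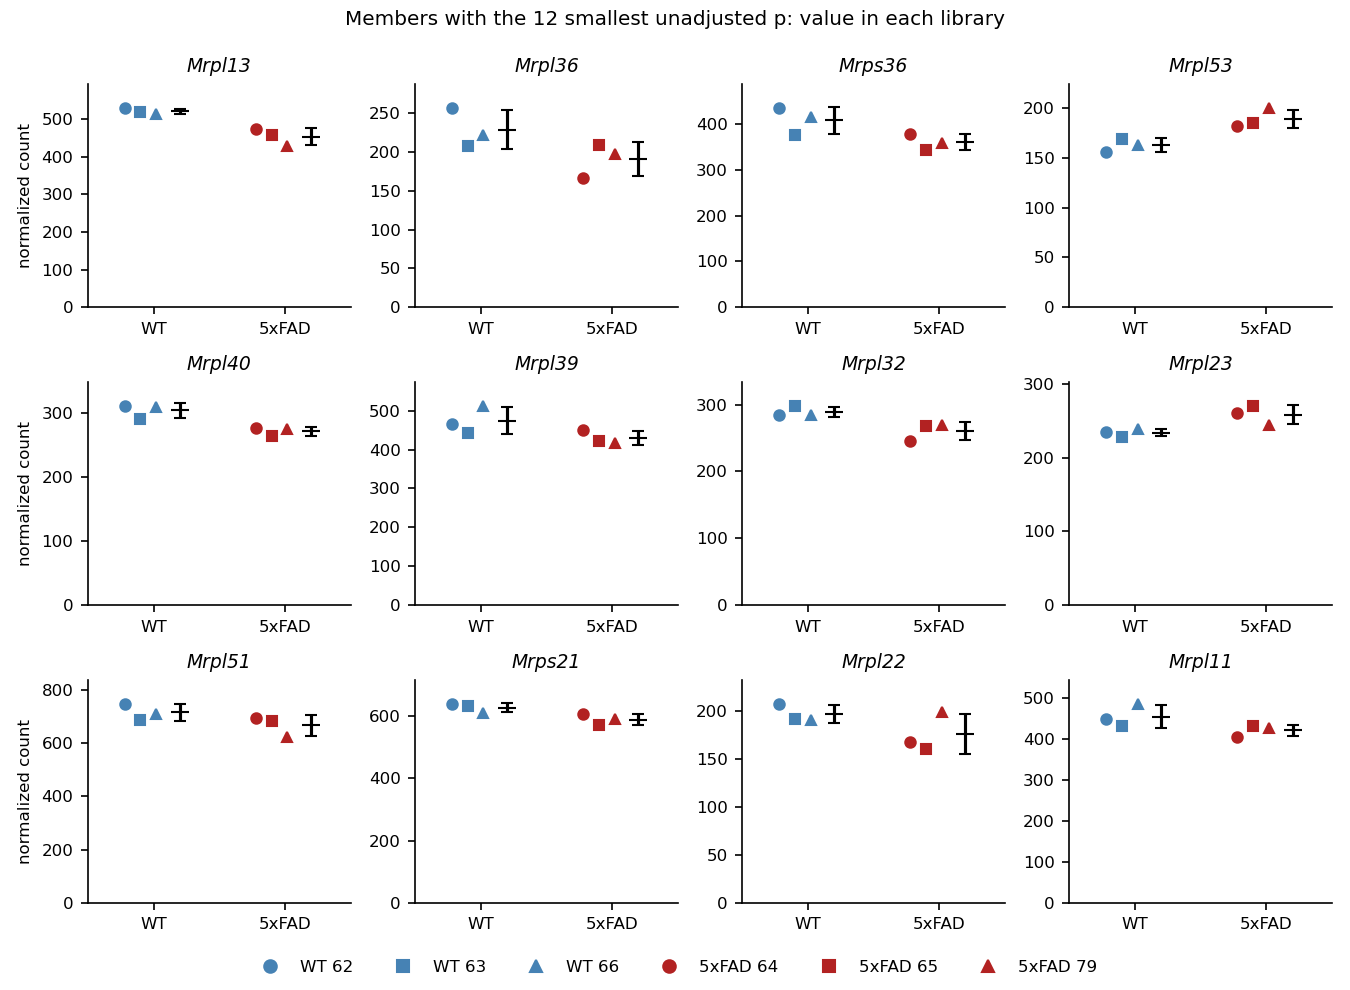
Normalized count (y axis, from 0) in each of the 6 libraries for the 12 members with the smallest unadjusted p, with WT in blue and 5xFAD in red, and with the mean and SD of each group (n = 3) as a black bar beside its points. The groups are apart in Mrpl13, Mrpl53, Mrpl40, Mrpl32, Mrpl23 and Mrps21 and overlap in the other 6.

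The mean level of the members overlapped between the genotypes. Averaged over the 78 genes, the log2 value was 8.62, 8.53 and 8.61 in WT libraries 62, 63 and 66 and 8.55, 8.53 and 8.59 in 5xFAD libraries 64, 65 and 79. The WT mean was 8.59 ± 0.049 and the 5xFAD mean 8.56 ± 0.029 (SD, n = 3 libraries). Counting single genes, 28 of the 78 were highest in WT library 62, 17 in WT library 66 and 12 in 5xFAD library 79, but 5 in WT library 63. The lowest value fell in 5xFAD library 65 for 22 members and in WT library 63 for 21, and in WT libraries 62 and 66 for 6 and 4. WT library 62 was highest for 35.9% of members against 15.2% of all tested genes, and WT library 66 for 21.8% against 18.6%. For 5xFAD library 79 these shares were 15.4% against 16.0%, and for WT library 63 they were 6.41% against 16.0%. The lowest value fell in 5xFAD library 65 for 28.2% of members against 21.3% of all tested genes, and in WT library 63 for 26.9% against 15.6%. In WT library 62 it fell for 7.69% against 15.8%, and in WT library 66 for 5.13% against 18.9%.

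Cerebellar granule markers moved with this order. From the highest members' mean to the lowest, the libraries ran WT 62, WT 66, 5xFAD 79, 5xFAD 64, WT 63 and 5xFAD 65, which is the order of the granule markers from lowest to highest. The markers' mean log2 values along that order were 7.56, 8.30, 9.38, 10.27, 10.53 and 10.90. Other cell type markers set the same libraries apart. WT library 63 and 5xFAD library 65, with the lowest members' means, also had the lowest mean log2 values of the 6 oligodendrocyte markers, at 14.01 each against 14.29 to 14.57 in the other 4 libraries. These 2 libraries had the highest means of the 8 noradrenergic markers, at 9.48 and 9.64 against 8.69 to 9.32 in the others. All 6 oligodendrocyte markers were above 0 in every library, with summed levels of 206587 to 261582 normalized counts in WT and 199494 to 311565 in 5xFAD. The part of the oligodendrocyte and noradrenergic markers in the members' values was not tested. An alternative chosen after seeing the data took the cerebellar granule marker mean as a covariate in the same model. It left 6 libraries to estimate 3 coefficients. The granule marker mean was itself higher in 5xFAD (10.18 against 8.80 in WT), so this fit cannot fully separate marker level from genotype. With the covariate, 43 of 78 members had higher values in 5xFAD and 35 lower. The share of higher values was thus 55.1% in place of 35.9%, beside 49.5% of all tested genes, and the median log2 fold change was 0.01 in place of -0.03. By class, 14 of 21 large-subunit members found only in mitochondria were higher (median 0.03 in place of -0.01), 8 of 16 small-subunit members with bacterial counterparts (median -0.01 in place of 0.00) and 4 of 10 small-subunit members found only in mitochondria (median -0.01 in place of -0.04). The slope on the marker mean was below 0 for 55 of 78 members, or 70.5%, against 49.4% of all tested genes. These slopes restate the opposite order of the library means given above and are not separate support for it.

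In that fit the log2 fold change was -0.21 (SE 0.09) for Mrpl13 and -0.17 (SE 0.15) for Mrpl36. Mrpl14 had the highest log2 fold change of the members there, at 0.39 (SE 0.19) in place of 0.10 (SE 0.20). The limits of its interval in that fit were -0.03 and 0.81. Mrps2, the counterpart of bacterial S2, went from 0.08 (SE 0.10) to 0.24 (SE 0.08). Mrpl13 and Mrps2 were the 2 members at an unadjusted p under 0.05, where 3.5% of all tested genes reached that p. The number of members past an adjusted p of 0.05 was again 0. Mrps2 lies outside the rule for naming genes and was named because of this value.

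**Figure D4:**
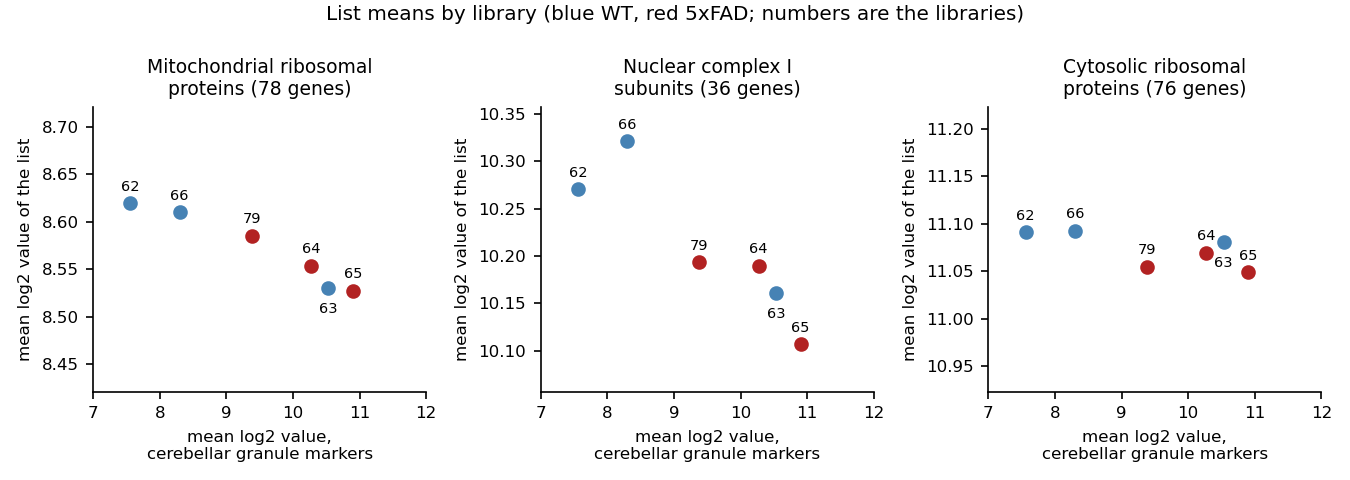
Mean log2 value of 3 gene lists (y axes, each spanning the same range of log2 units) against the mean log2 value of 6 cerebellar granule markers (x axis) in each library, numbered, with WT in blue and 5xFAD in red. Mitoribosomal genes go from 8.62 in WT library 62, with the lowest marker mean (7.56), to 8.53 in 5xFAD library 65, with the highest (10.90).

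Other genes of mitochondrial translation were taken from lists of fixed composition, and 0 of them passed the threshold. Of the 5 mitoribosomal proteins with other symbols, 0 had higher values in 5xFAD, with a median log2 fold change of -0.13. Gadd45gip1, also called CRIF1 and placed at the exit of the nascent chain, read 319, 300.2 and 313 normalized counts in WT, against 285, 261 and 271 in 5xFAD. Its groups did not overlap (log2 fold change -0.19, SE 0.09). Chchd1, a small-subunit protein, did not overlap either, at 310.1, 312 and 297 in WT, against 266, 282 and 292 in 5xFAD (log2 fold change -0.13, SE 0.09). Aurkaip1 stood at -0.15 (SE 0.10), the pentatricopeptide repeat protein Ptcd3 at -0.05 (SE 0.06), and Dap3, a GTP-binding protein of the small subunit, at -0.00 (SE 0.06).

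The factors that build the mitoribosome were split evenly, with 13 of 26 higher and a median log2 fold change of 0.00. The GTPase Gtpbp10, which acts late on the large subunit, stood at a log2 fold change of -0.19 (SE 0.10) without overlap, and the helicase Ddx28 at 0.22 (SE 0.15) with overlap. Among the translation factors, 4 of 14 had higher values. The initiation factor Mtif2 stood at -0.15 (SE 0.08) and the recycling factor Gfm2 at -0.11 (SE 0.07), both without overlap, while the elongation factor Tufm stood at -0.00 (SE 0.06). Of the 20 tRNA synthetases and amidotransferase subunits 11 had higher values, led by the arginyl-tRNA synthetase Rars2 at 0.21 (SE 0.11).

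Among the 19 genes of mitochondrial transcription and RNA processing, 9 had higher values. Polrmt, the mitochondrial RNA polymerase, read 307, 268 and 306 normalized counts in WT, against 357, 344 and 337 in 5xFAD. All 5xFAD values lay above WT (log2 fold change 0.24, SE 0.09, limma, unadjusted p = 0.0257, adjusted p = 0.9995). Ptcd2, a pentatricopeptide repeat protein, stood at -0.20 (SE 0.10), with overlap.

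The messenger RNAs that the mitoribosome translates had lower values in 5xFAD for 12 of 13, with a median log2 fold change of -0.09. At an unadjusted p under 0.05 there were 3 of the 13, all lower, where 1.05% of all tested genes were lower at that p. The lowest fold change was that of mt-Co2, a core subunit of cytochrome c oxidase, at -0.41 (SE 0.10). The 2 others were mt-Nd6 at -0.16 (SE 0.06) and mt-Nd4l at -0.15 (SE 0.06), both subunits of complex I. Nuclear complex I subunits were lower for 35 of 36, with a median of -0.08, and 4 of them, Ndufb4, Ndufv3, Ndufs6 and Ndufb3, reached an unadjusted p under 0.05, all with lower values (1.05% of all tested genes). Cytosolic ribosomal proteins were lower for 62 of 76 with a median of -0.03, and their groups did not overlap in 14 of the 76, all lower in 5xFAD (3.7% of all tested genes).

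With the marker mean as a covariate, the number of higher values went from 1 to 13 of 36 for nuclear complex I subunits, whose slope on the markers was below 0 in 36 of 36. It went from 1 to 6 of 13 for the mitochondrially encoded messenger RNAs, from 14 to 28 of 76 for the cytosolic ribosomal proteins and from 4 to 7 of 14 for the translation factors. The assembly factors went from 13 to 14 of 26.

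**Figure D5:**
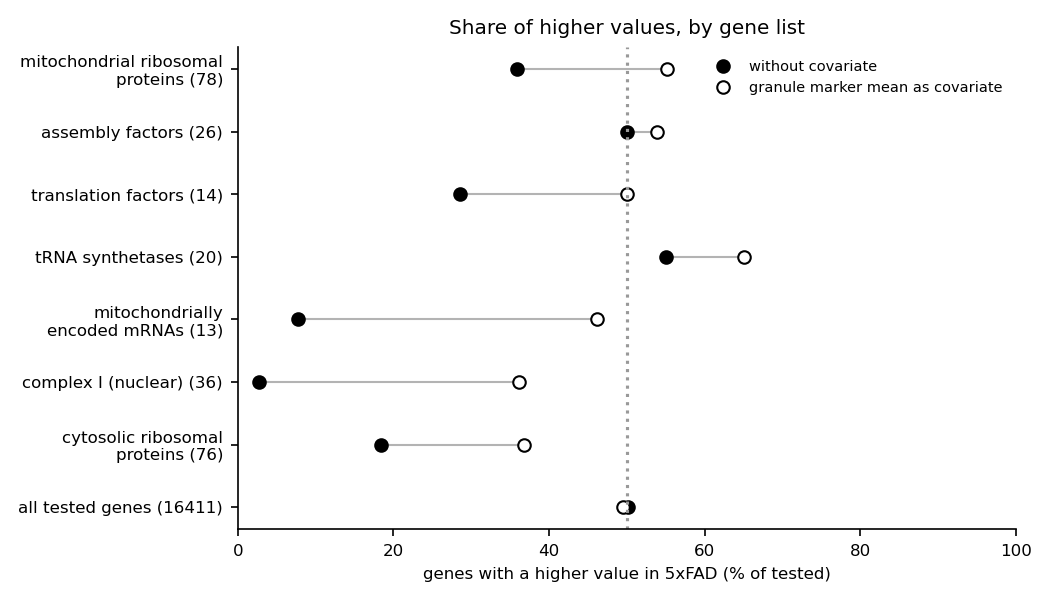
Share of tested genes with a higher value in 5xFAD (x axis, percent) in 7 gene lists and over all 16411 tested genes, with the number tested in parentheses. Filled points are from the model without a covariate and open points from the model with the granule marker mean as a covariate, which takes the mitoribosomal genes from 35.9% to 55.1%.

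Over all tested genes, transcript length also went with the share of higher values. The members' coding transcripts are short, with a median length of 1224.5 bases against 2312 for all coding genes of the annotation. Of the 1604 tested genes at or under that length, 41.2% had higher values in 5xFAD, against 51.9% of the 12716 that are longer. Among the members the share went the other way, at 41.0% for those at or under their median length and 30.8% for the longer ones. Across the 78 members, Pearson's r of log2 fold change with log2 length was -0.02, and across the 14320 tested genes with a length it was 0.07. Genes of 1 set of libraries are not independent replicates, and the part of length in the members' values was not tested.

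Many members share a start region with another gene. In GENCODE M21, 33 of 78 members, or 42.3%, have a coding gene on the opposite strand that starts within 1000 bases, against 10.9% of 21951 coding genes. The median distance between the starts was 128 bases. Of these partners 30 were tested, 12 with higher and 18 with lower values in 5xFAD, and 17 had the same sign as their member. Only Ndufs6, a complex I subunit whose annotated start lies 29 bases from that of Mrpl36, reached an unadjusted p under 0.05 among them. It read 647, 562 and 623 normalized counts in WT, against 522, 556 and 499.9 in 5xFAD, without overlap (log2 fold change -0.21, SE 0.08). Of the 78 members 26 share exon bases with another gene, 22 of them on the opposite strand, and the sources used here do not state whether the counting used strand, so the values of those members are uncertain to that extent.

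Mrpl46 and Mrps11, a large-subunit and a small-subunit gene, form such a pair with each other. Mrpl46 read 360.3, 309 and 354 in WT, against 335, 315 and 299.9 in 5xFAD (log2 fold change -0.10, SE 0.09). Mrps11 read 292, 304 and 279.7 in WT, against 291, 309.9 and 293 in 5xFAD (log2 fold change 0.03, SE 0.09). Both overlapped between genotypes. The pair was named for its position and lies outside the rule for naming genes.

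The fold changes were also split by these promoter letters. Of the 26 genes with CCGGAAG, 8 had higher values in 5xFAD, with a median log2 fold change of -0.04, and of the 43 without it 16, with a median of -0.01. With the looser NRF1 letters 5 of 13 were higher (median -0.07), and without it 19 of 56 (median -0.03). With AAGATGGCG 2 of 8 were higher (median -0.02), and without it 22 of 61 (median -0.03).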

How the data were processed

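Bulk RNA was measured in 6 libraries, 3 per genotype. Per the labels' protocols, TRIzol-extracted RNA was selected for poly-A tails and made into TruSeq libraries. STAR, RSEM, DESeq2 and the build mm39 are named in the submitters' processing notes, without versions. The deposited values carry TPM in their name, but within each library 100% of them are whole multiples (tolerance 0.001) of 1 step, and the size factors recomputed from the reads recovered this way are those of DESeq2. The values the authors deposited are therefore a signal of gene counts divided by a size factor, and they were used as that. The authors' deposited table also holds log2 fold changes of WT over 5xFAD, their standard errors and test statistics (a score), and p-values, which served for comparison only.

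Symbols were found for 52073 gene IDs (91.5%). The main test was limma 3.58.1 (trend and robust moderation) in R 4.3.3 on log2 (value + 1), for genes with at least 10 in at least 3 libraries, with Benjamini-Hochberg adjustment over all 16411 and a threshold of 0.05. It was tested on 5 simulated sets with 200 changed genes each. At that threshold it recovered 53.8% of genes changed by 1.5-fold and 77.5% of those changed by 2-fold, with 11 false calls per set. Both shares apply to sets with 200 changed genes each. In the data 1 gene of 16411 passed, and recovery in sets with fewer changed genes was not tested. edgeR 4.0.16 and DESeq2 1.42.0 on the recovered reads, other pseudocounts, filters and scalings, each library left out, and a granule marker covariate (added after seeing the data) were alternatives. The annotation and lengths came from GENCODE M21 (GRCm38) and the promoter windows from RefSeq on GRCm38.p6, another build than the authors'. Coordinates are given only for the promoter windows, and they are on GRCm38.p6. Of 16 translation factor symbols, Mtrfr and Mtres1 were not matched.

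The members and the gene lists were chosen with earlier results of these data known. Named members were the 12 with the smallest unadjusted p, every member whose groups did not overlap, the 5 highest and 5 lowest means, and the largest and smallest SD within groups. Each other list gave at most 3 genes by smallest p and at most 2 by highest mean. Depth was 15158712 to 20079349 reads per library.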

Additional observations from a re-analysis of the deposited data

How the results depend on the processing

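The number of members past an adjusted p of 0.05 was 0 in the main test and in all 16 alternatives. The number at an unadjusted p under 0.05, which was 1, became 0 with DESeq2, 3 with limma without trend and robust moderation (Mrpl13, Mrpl53 and Mrpl40, where 3.26% of all genes reached that p), and 2 with the granule marker covariate, and it ranged from 0 to 5 with 1 library left out. The number of members with higher values, 28, became 43 with the covariate. In the other settings it was 21 with quantile normalization and 26 to 28 elsewhere, and 23 to 34 with 1 library left out. The median log2 fold change, -0.03, ran from -0.04 (quantile normalization) to 0.01 (covariate) with all 6 libraries in, and from -0.06 (without WT library 63) to -0.02 (without WT library 62 or 5xFAD library 65) with 1 library left out. It was -0.05 without 5xFAD library 79. Of 52 genes, those of the naming rule and the others given with a fold change, 11 changed sign in at least 1 alternative, and the cause was not tested. With the covariate, Mrpl54 became 0.0468, Mrpl48 0.0213, Mrpl52 -0.0710, Mrpl35 0.0240, Mrps25 0.0546, Mrps11 -0.0127, Dap3 0.0497, Tufm 0.0752 and App 0.0334, and App became 0.0733 with quantile normalization. With 1 library left out, Mrpl54 ranged from -0.258 (without 5xFAD library 64) to 0.00198 and Mrpl48 from -0.0896 (without 5xFAD library 79) to 0.0122, both highest without 5xFAD library 65. Mrpl14 ranged from -0.102 (without WT library 63) to 0.264 (without WT library 66) and Mrpl52 from -0.0193 (without WT library 62) to 0.195 (without WT library 63). Lowest without WT library 63 and highest without WT library 62 were Mrpl35 (-0.0413 to 0.0204), Mrps25 (-0.0521 to 0.0333), Mrps2 (-0.0145 to 0.161), Dap3 (-0.0342 to 0.0329) and Tufm (-0.0528 to 0.0353). App ranged from -0.0580 (without 5xFAD library 79) to 0.0363 (without 5xFAD library 65). No paired analysis was possible because the library numbers are not shared between the groups. With 3 libraries per genotype, differences smaller than the intervals given for each member were not detectable at this depth.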

Other observations

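The 5 pseudogene symbols left out by the rule were at or near 0. Their highest value was 4.30 normalized counts (Mrpl23-ps1 in WT library 63), and Mrps36-ps3 was at 0 in all 6 libraries.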
